A study of Caenorhabditis elegans with 26 samples.

Results

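Body wall muscle of Caenorhabditis elegans is built of sarcomeres, and the 8 genes described here encode proteins of their filaments: the myosin heavy chains unc-54 and myo-3, the paramyosin unc-15, the giant filament proteins unc-22 (twitchin) and unc-89 (an obscurin homolog), the troponin T tnt-2, the troponin I unc-27 and the tropomyosin lev-11. They were chosen by gene name, found through the WBcel235 annotation, and their transcript rows were summed, which gave 8 of the 22271 genes of the count table. The values are small-RNA reads on these genes and not their mRNA levels. Whole worms of 3 genotypes were compared, each with 2 libraries: rde-3 mut-16(DE6R), which carries mutations in both genes, mut-16(DE6R), and wild type (WT). The labels give no strain, stage or age and do not say what kind of allele DE6R or the rde-3 mutation is. The labels call all these worms untreated. Nor do they tell if the 2 libraries of a genotype are from different cultures. The p-values below therefore rest on a spread that may be technical. The other 20 libraries of the series came from lambdaN tethering strains and were not analysed here.

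MUT-16 is the scaffold of the mutator foci, germline granules in which RNA-dependent RNA polymerases make secondary small RNAs on target transcripts. RDE-3 is a nucleotidyltransferase that tails target RNAs so that they can serve as templates for that synthesis. In muscle, myosin heavy chains form the thick filaments around a core of paramyosin. Troponin and tropomyosin sit on the thin filaments and let calcium switch contraction on and off, and twitchin and UNC-89 are giant proteins of the thick filament and its M-line. These genes serve in soma, and mutator foci are known from the germline.

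Counted reads summed to between 515300 and 1571194 per library, of which the 8 genes held 544 of 5800540. CPM here means TMM-scaled counts (edgeR's normalization factors), so that a value is relative to the bulk of genes. A single gene, F56H9.8, held between 37.5% and 55.5% of a library's reads. A single read was worth 0.476 to 1.54 CPM, so a gene with few reads has coarse values. Since whole worms were used, fewer cells of a type and fewer small RNAs per cell cannot be told apart.

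Reads were spread very unevenly over the 8 genes. The myosin gene unc-54 held 360 reads, myo-3 69, tnt-2 56 and unc-27 29, together 94.5% of the total. The other 4 genes held few reads: unc-22 had 16, unc-89 had 8, unc-15 had 4 and lev-11 had 2. The number of transcript rows ranged from 1 for unc-54, myo-3, tnt-2 and unc-27 to 20 for lev-11, and apart from unc-22, whose reads lay on 3 of its 9 transcripts, the reads of each gene were listed under 1 transcript. The 4 genes with few reads were thus those with several rows (unc-15 had 3 and unc-89 16). How reads shared by transcripts of a gene were counted is not given. At these 4 genes few small RNAs and reads lost in counting therefore cannot be told apart.

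**Figure D1:**
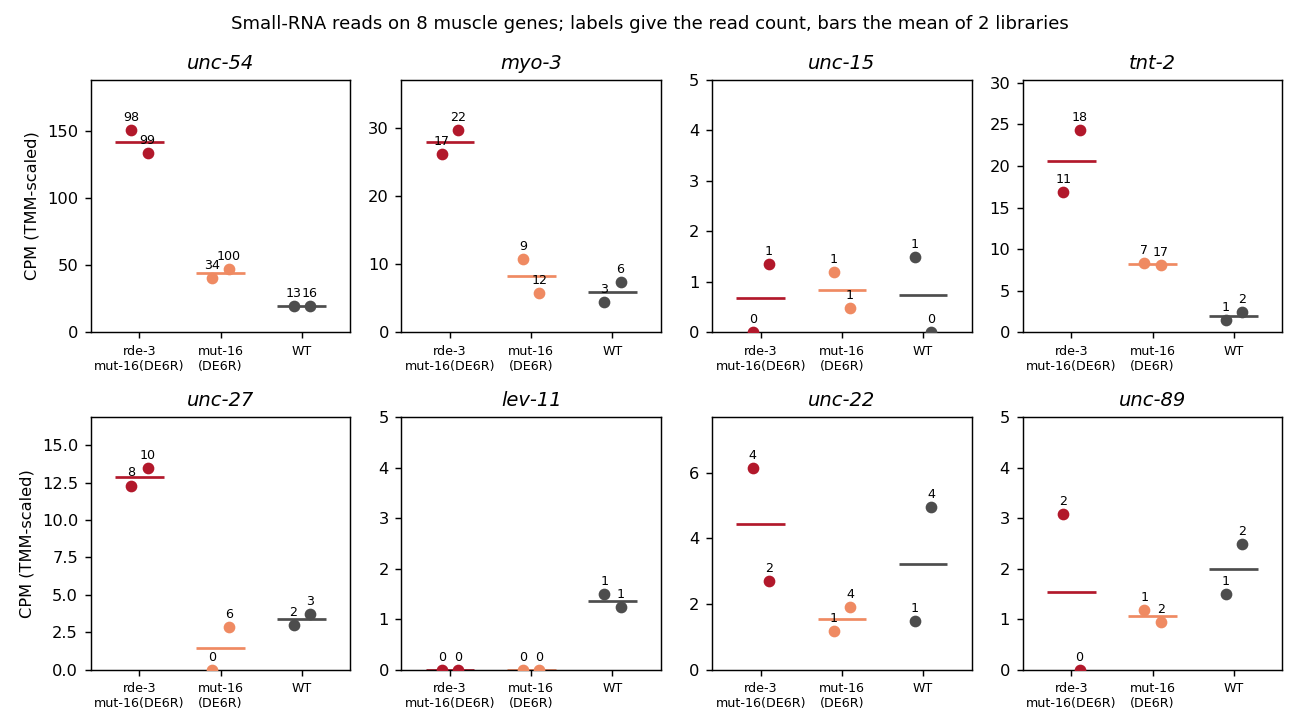
Small-RNA reads on each of the 8 genes in CPM (vertical axis, from 0, its own scale per gene) for rde-3 mut-16(DE6R), mut-16(DE6R) and WT. Points are libraries with their read count beside them, and bars are the mean of 2 libraries; unc-54 reaches 151 CPM in rde-3 mut-16(DE6R) while unc-15, lev-11 and unc-89 have at most 2 reads in any library.

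The major myosin heavy chain gene of body wall muscle, unc-54 (chromosome I, 14855901 to 14863482 in WBcel235, minus strand, 9 exons), carried most of the signal. It had 151 and 134 CPM in the rde-3 mut-16(DE6R) libraries (98 and 99 reads), 40.5 and 47.6 CPM in the mut-16(DE6R) libraries (34 and 100 reads), and 19.4 and 19.8 CPM in the WT libraries (13 and 16 reads). All libraries of the double mutant were higher than those of mut-16(DE6R), and these were higher than those of WT, with no overlap. The means were 142 ± 12.1 CPM in rde-3 mut-16(DE6R), 44.0 ± 5.05 CPM in mut-16(DE6R) and 19.6 ± 0.285 CPM in WT (SD, n = 2 each). Both WT libraries lay only just over the level that the expression filter asked for (11.3 CPM of the library total), so unc-54 was tested whatever its level in the mutants.

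The other myosin heavy chain, myo-3 (V, 12226817 to 12234343, minus strand, 7 exons), lies in the middle of each thick filament. It had 26.1 and 29.7 CPM in rde-3 mut-16(DE6R) (17 and 22 reads), 10.7 and 5.71 CPM in mut-16(DE6R) (9 and 12 reads), and 4.48 and 7.44 CPM in WT (3 and 6 reads). The double mutant stood above both other groups, whereas mut-16(DE6R) and WT overlapped. How reads of sequence shared with unc-54 or with other myosin genes were assigned is not given in the sources used here, and no sequence was used to check it.

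Both troponin genes lie on X. The troponin T gene tnt-2 (8721546 to 8723550, minus strand), whose product ties the troponin complex to tropomyosin, had 16.9 and 24.3 CPM in rde-3 mut-16(DE6R) (11 and 18 reads), 8.33 and 8.09 CPM in mut-16(DE6R) (7 and 17 reads), and 1.49 and 2.48 CPM in WT (1 and 2 reads). The groups did not overlap and stood in the same order as at unc-54. At unc-27 (8789456 to 8790621, plus strand), whose product is the inhibitory subunit, the rde-3 mut-16(DE6R) libraries had 12.3 and 13.5 CPM (8 and 10 reads), the mut-16(DE6R) libraries 0 and 2.86 CPM (0 and 6 reads), and the WT libraries 2.99 and 3.72 CPM (2 and 3 reads). Here the double mutant alone was high, and mut-16(DE6R) was below WT by less than its own spread.

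The 4 remaining genes stayed near single reads in every library. The giant protein genes unc-22 (IV, 11972697 to 12011007) and unc-89 (I, 4035702 to 4090885) are each over 20 kilobases as transcripts, yet unc-22 held 6 reads in rde-3 mut-16(DE6R), 5 in mut-16(DE6R) and 5 in WT, and unc-89 held 2, 3 and 3 in the same order. The paramyosin gene unc-15 (I, 7376604 to 7383197) held 1, 2 and 1 reads, and the tropomyosin gene lev-11 (I, 14621169 to 14631094) held 0, 0 and 2. Summed, the 4 genes had 9.23 and 4.05 CPM in rde-3 mut-16(DE6R), 3.57 and 3.33 CPM in mut-16(DE6R), and 5.98 and 8.68 CPM in WT. The double mutant overlapped WT in this sum, from 9 against 11 reads (ratio 0.868, 95% exact counting interval 0.318 to 2.30). Reads at unc-22 are uncertain in a further way, since an exon of ZK829.9 on the opposite strand overlaps it and strand use is not given in the sources used here. Exons of ZK617.26 and of the noncoding ZK617.7 on the same strand, and of the noncoding ZK617.19 on the opposite strand, overlap it too. Of all these genes, ZK829.9, with 65 reads, and ZK617.26, with 0 reads, are among the counted genes. No exon of another gene overlapped those of the other 7 genes.

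Because transcript length differs widely, levels were compared between genes as CPM per kilobase of the longest transcript, from the reads of both libraries. In rde-3 mut-16(DE6R) the order was unc-54 with 22.8 (counting interval 19.7 to 26.2), unc-27 with 13.9 (8.22 to 21.9), tnt-2 with 13.8 (9.23 to 19.8), myo-3 with 4.59 (3.27 to 6.28), unc-15 with 0.210 (0.00532 to 1.17), unc-22 with 0.200 (0.0733 to 0.435) and unc-89 with 0.0582 (0.00705 to 0.210). Only the steps from tnt-2 to myo-3 and from myo-3 to unc-15 were free of overlap between neighbouring intervals. At lev-11, 0 reads in the double mutant allow a level of up to 1.40 CPM per kilobase (3 counts over both libraries), so a level of tropomyosin like that of paramyosin could not have been seen.

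In mut-16(DE6R) unc-54 was again first, with 7.35 CPM per kilobase (6.15 to 8.70), before tnt-2 with 5.39 (3.46 to 8.03), unc-27 with 2.19 (0.803 to 4.76) and myo-3 with 1.17 (0.724 to 1.79). The intervals of each of these neighbours overlapped. In WT unc-27 with 3.63 (1.18 to 8.48) and unc-54 with 3.17 (2.12 to 4.55) led, and tnt-2 with 1.34 (0.277 to 3.93), myo-3 with 0.999 (0.457 to 1.90) and lev-11 with 0.882 (0.107 to 3.19) followed with overlapping intervals. Apart from lev-11 with 0 reads in mut-16(DE6R), the lowest levels in both genotypes were those of unc-22 and unc-89, 0.0787 and 0.0413 CPM per kilobase in mut-16(DE6R) and 0.157 and 0.0823 in WT. These intervals and limits cover counting error only, and not how reads shared by transcripts of a gene were counted.

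**Figure D2:**
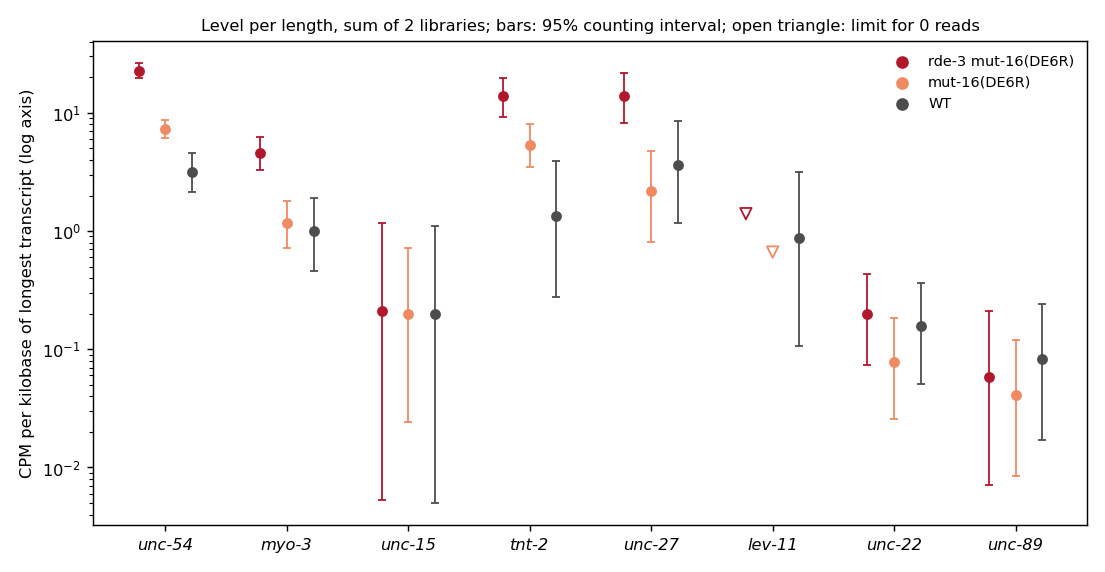
CPM per kilobase of the longest transcript (log axis) of the 8 genes in rde-3 mut-16(DE6R), mut-16(DE6R) and WT, from the reads of 2 libraries with 95% exact counting intervals. The 4 genes with the most reads lie between 0.999 and 22.8, whereas unc-22 and unc-89 lie between 0.0413 and 0.200; open triangles mark the limit that 0 reads allow at lev-11.

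The first comparison set rde-3 mut-16(DE6R) against WT and asked where the mutations together changed small-RNA reads. Reads on both myosin heavy chain genes and both troponin genes rose. At unc-54 the log2 fold change was 2.84 (SE 0.25; adjusted p = 4.45e-30 in edgeR's quasi-likelihood test, by Benjamini-Hochberg), on 197 against 29 reads, a ratio of 7.21 (counting interval 4.86 to 11.0). Of 5312 tested genes, 48 had a larger log2 fold change. At myo-3 it was 2.18 (SE 0.51; edgeR adjusted p = 4.17e-05), on 39 against 9 reads, and at unc-27 1.89 (SE 0.68; edgeR adjusted p = 9.54e-03), on 18 against 5 reads. The tnt-2 reads were 29 and 3, a ratio of 10.3 (counting interval 3.18 to 52.6; edgeR adjusted p = 5.66e-06).

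Over all tested genes, 64.7% were called, 26.8% higher and 37.9% lower, with a median log2 fold change of −0.03. The expression filter left 4 of the 8 genes, all of them called higher. Of these, myo-3 reached its level in both rde-3 mut-16(DE6R) libraries, in 1 of mut-16(DE6R) and in 0 of WT. The genes tnt-2 and unc-27 passed it only through the libraries of rde-3 mut-16(DE6R). The count and the direction are therefore in part set by the filter and support nothing. A fit of all 16519 genes with at least 1 read called 7.45% higher, and 4 of the 8 genes. Of the 4 called there, unc-27 passed only just (edgeR adjusted p = 0.0498). In that fit the log2 fold changes of unc-22 (0.40, SE 1.04), unc-15 (0.11, SE 2.28) and unc-89 (−0.40, SE 1.54) did not pass. Nor did that of lev-11 (−3.35, SE 3.21), which came from 0 against 2 reads and is no bound. Each SE was derived from the log2 fold change and the F value of its own test, and so adds nothing to the p.

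The rise of unc-27 rested on few reads. It did not pass without rde-3 mut-16(DE6R) library 1 (1.98) or 2 (1.81), without WT library 1 (1.73) or 2 (2.02), or by DESeq2 (1.89, adjusted p = 0.158). The calls at unc-54, myo-3 and tnt-2 held under every alternative in which the gene was tested.

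The second comparison set mut-16(DE6R) against WT. Reads rose at unc-54, with a log2 fold change of 1.20 (SE 0.28; edgeR adjusted p = 5.84e-05) on 134 against 29 reads, a ratio of 2.32 (counting interval 1.54 to 3.59). They also rose at tnt-2, on 24 against 3 reads, a ratio of 4.01 (counting interval 1.22 to 20.8; edgeR adjusted p = 0.0224). At myo-3 the log2 fold change was 0.23 (SE 0.60; edgeR adjusted p = 0.762) and at unc-27 −0.70 (SE 0.88; edgeR adjusted p = 0.510), and neither passed. Among all tested genes 58.7% were called, 22.1% were higher and 36.6% lower, with a median of −0.09, and without the filter 10.8% were higher, among them 2 of the 8 genes.

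The tnt-2 call did not pass without mut-16(DE6R) library 2 (1.94), WT library 1 (1.65) or WT library 2 (2.32), nor by DESeq2 (2.01, adjusted p = 0.137). With library totals in place of TMM factors myo-3 rose (1.39, adjusted p = 0.0207) and unc-27 turned to 0.43, which did not pass. That scaling moved the median of all genes to 1.09, so myo-3 lay close to it. At unc-54 it gave 2.39, which is still over that median.

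The third comparison set rde-3 mut-16(DE6R) against mut-16(DE6R), the added rde-3 mutation on the same mut-16 allele. Both myosin and both troponin genes had more reads in the double mutant. At unc-54 the log2 difference was 1.64 (SE 0.17; edgeR adjusted p = 9.76e-20) on 197 against 134 reads, a ratio of 3.11 (counting interval 2.48 to 3.90) after scaling. It was 1.95 at myo-3 (SE 0.41; edgeR adjusted p = 1.34e-05), 1.34 at tnt-2 (SE 0.43; edgeR adjusted p = 5.98e-03) and 2.59 at unc-27 (SE 0.63; edgeR adjusted p = 1.99e-04). Of all tested genes 42.7% were called, 16.5% were higher and 26.2% lower, with a median of −0.02. Here too tnt-2 and unc-27 had passed the filter only through the rde-3 mut-16(DE6R) libraries, where they were high, so their calls are in part set by it. So is that of myo-3, which reached the filter's level in both rde-3 mut-16(DE6R) libraries but in only 1 of mut-16(DE6R). In the fit without the filter 0.866% of all genes were called higher, and of the 8 genes unc-54, myo-3 and unc-27.

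In the third comparison the tnt-2 call did not pass without the filter (1.02, adjusted p = 0.180), without rde-3 mut-16(DE6R) library 2 (1.03), without mut-16(DE6R) library 2 (adjusted p = 0.135) or by DESeq2 (adjusted p = 0.220). That of unc-27 did not pass without rde-3 mut-16(DE6R) library 2 (2.55) or by DESeq2 (2.83, adjusted p = 0.0545). Without mut-16(DE6R) library 2, unc-27 was set against a single library with 0 reads and a fitted value of 6.28, which is no bound. The 3 comparisons share libraries pairwise, so their results are not independent of each other.

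**Figure D3:**
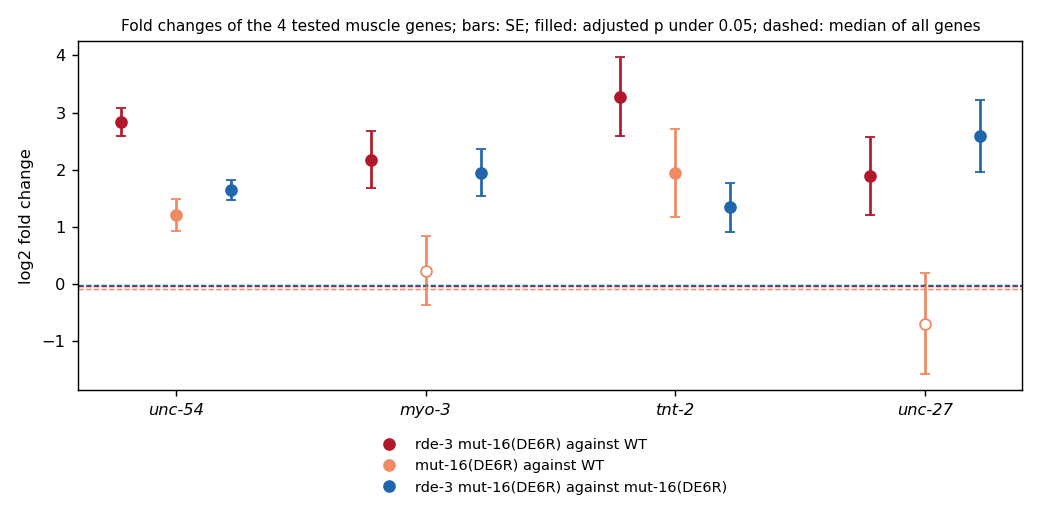
Log2 fold change (vertical axis) of the 4 tested genes in the 3 comparisons, with SE bars; filled points passed an adjusted p of 0.05 in edgeR, and dashed lines are the medians over 5312 genes. In the comparison of mut-16(DE6R) with WT unc-54 (1.20) and tnt-2 (1.94) are filled and myo-3 (0.23) and unc-27 (−0.70) are open, and in the other 2 comparisons all 4 are filled.

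Summed over the 8 genes, the rde-3 mut-16(DE6R) libraries had 215 and 205 CPM, the mut-16(DE6R) libraries 63.1 and 67.6 CPM, and the WT libraries 34.4 and 42.2 CPM. The groups did not overlap. Without unc-54 the sums were 64.6 and 71.5 CPM in rde-3 mut-16(DE6R), 22.6 and 20.0 CPM in mut-16(DE6R), and 14.9 and 22.3 CPM in WT. Between mut-16(DE6R) and WT these 7 genes overlapped (ratio 1.09, counting interval 0.688 to 1.78). No test was made on sums over genes chosen for this description.

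The values of unc-54 moved with the scaling and passed under each alternative run. Against WT, 17 alternatives gave between 2.78 and 4.10 for rde-3 mut-16(DE6R) and between 1.03 and 2.39 for mut-16(DE6R). The double mutant against mut-16(DE6R) gave between 1.33 and 2.04. The largest adjusted p among them was 1.18e-12, 0.0168 and 5.88e-07 in the same order. Scaled to library totals, the median of all genes itself moved to 1.06, 1.09 and −0.11 in the 3 comparisons, against unc-54 at 3.94, 2.39 and 1.55.

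**Figure D4:**
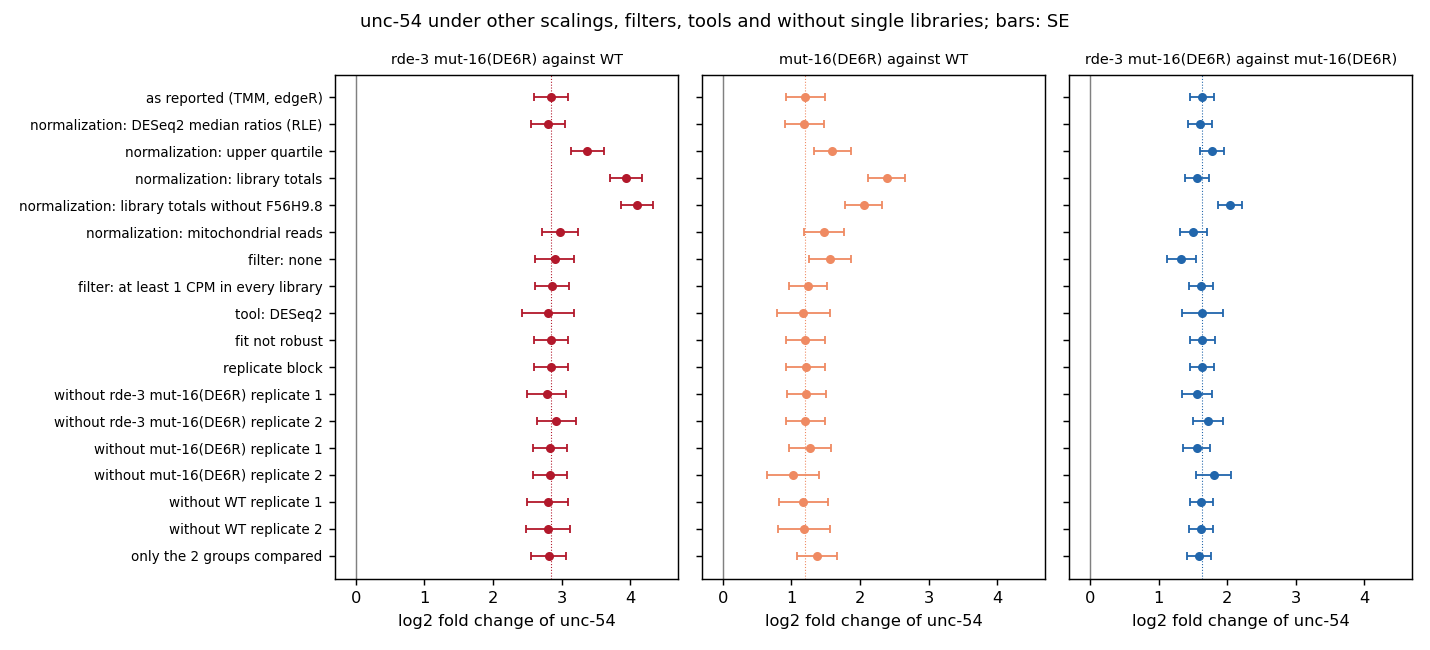
Log2 fold change of unc-54 (horizontal axis, SE bars) as reported and under 17 other scalings, filters, tools and left-out libraries, in 1 panel per comparison. All points lie over 0, from 1.03 for mut-16(DE6R) against WT without mut-16(DE6R) library 2 to 4.10 for rde-3 mut-16(DE6R) against WT with library totals without F56H9.8.

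Further muscle genes were called in both directions. Of 28 further sarcomere genes (other myosins, light chains, actins, titin-like and thin filament proteins), 22 had reads and 5 were tested. Set against WT, the double mutant had 1 higher and 1 lower, with a median of 0.92 against −0.03 for all genes. Only 1 of the 5 reached the filter's level in both WT libraries, so these counts and medians are in part set by the filter. The actin gene act-4 had 10.8 and 26.99 CPM in rde-3 mut-16(DE6R) and 5.98 and 4.96 CPM in WT, a rise of 1.81 (SE 0.57; edgeR adjusted p = 2.71e-03), and its reads may be shared with its near-identical paralogs. This rise did not pass without rde-3 mut-16(DE6R) library 2 (0.96), without WT library 2 (1.62) or by DESeq2. The myosin chaperone gene unc-45 had 111 and 78.3 CPM in rde-3 mut-16(DE6R) and 175 and 103 CPM in WT, a log2 change of −0.54 (SE 0.17; edgeR adjusted p = 3.83e-03). It was called higher instead with library totals (0.56) and with library totals without F56H9.8 (0.72), where the medians of all genes were 1.06 and 1.22. With upper quartiles, with mitochondrial reads, without the filter, by DESeq2, without rde-3 mut-16(DE6R) library 2 (−0.31) or WT library 1 (−0.17) unc-45 did not pass.

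In mut-16(DE6R) against WT, 0 of the 5 further sarcomere genes were higher and 1 was lower (median 0.22). This was unc-45, with 59.5 and 84.7 CPM in mut-16(DE6R), which fell by 0.83 (SE 0.16; edgeR adjusted p = 5.18e-07). It was called higher instead with library totals (0.36). With library totals without F56H9.8 its sign turned and it did not pass, nor did it pass without WT library 1 (−0.44). In the double mutant against mut-16(DE6R), 1 was higher and 0 were lower (median 0.71). The light chain gene mlc-1 on X had 12.3 and 9.45 CPM in rde-3 mut-16(DE6R) and 3.57 and 3.33 CPM in mut-16(DE6R), a rise of 1.63 (SE 0.60; edgeR adjusted p = 0.0185). It passed the filter only through the rde-3 mut-16(DE6R) libraries, where it was high, so its call is in part set by the filter. That call did not pass under the replicate block, without the filter, by DESeq2, without either rde-3 mut-16(DE6R) library (1.45 and 1.81) or without mut-16(DE6R) library 1 (1.64), and the near-identical mlc-2 may share its reads.

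Of 22 genes that attach muscle to its basement membrane or build that membrane, 18 had reads and 4 were tested. Against WT, 2 were higher and 0 lower in rde-3 mut-16(DE6R) (median 1.67), and 1 higher and 0 lower in mut-16(DE6R) (median 0.82). Of the 4, 2 reached the filter's level in both WT libraries, and neither pat-2 nor emb-9 did, so these counts and medians too are in part set by the filter. The integrin alpha gene pat-2 had 23.1 and 26.99 CPM in rde-3 mut-16(DE6R), 9.52 and 8.09 CPM in mut-16(DE6R), and 4.48 and 1.24 CPM in WT. Its reads rose by 3.15 (SE 0.62; edgeR adjusted p = 1.15e-06) in the double mutant against WT, with 4.18 without WT library 1 and 2.40 without WT library 2, and by 1.60 (SE 0.72; edgeR adjusted p = 0.0433) in mut-16(DE6R). The call in mut-16(DE6R) did not pass under the replicate block, by DESeq2, without mut-16(DE6R) library 1 (1.53) or 2 (1.74), or without WT library 2 (0.87), and was 2.65 without WT library 1. At the type IV collagen gene emb-9, the double mutant held 18 reads and WT 0. The lower end of the counting interval for the ratio of the double mutant to WT was 4.66. With WT set to 3 counts over both libraries this ratio was 6.36, a value that leaves out the counting error of the 18 reads.

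In the double mutant against mut-16(DE6R), 2 of the 4 attachment genes were higher and 1 was lower (median 0.85). These were pat-2 (1.55, SE 0.41; edgeR adjusted p = 6.17e-04), emb-9 (18 against 5 reads; edgeR adjusted p = 6.72e-05) and, in the other direction, the kindlin gene unc-112 (−0.76, SE 0.31; edgeR adjusted p = 0.0370). At emb-9 only the rde-3 mut-16(DE6R) libraries reached the filter's level. At pat-2 both of them did, but not both of mut-16(DE6R). The counts and the median of this list are therefore in part set by the filter. In the same comparison 16.5% of all tested genes were higher and 26.2% lower. DESeq2 called none of pat-2, emb-9 and unc-112. The pat-2 call did not pass without mut-16(DE6R) library 2 (1.39), and that of unc-112 did not pass with upper quartiles, with library totals without F56H9.8, without rde-3 mut-16(DE6R) library 2 (−0.28) or mut-16(DE6R) library 2 (−0.39).

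Of 16 genes of muscle excitation and calcium handling, 12 had reads and 2 were tested, 1 of which reached the filter's level in both WT libraries. The calcium pump gene sca-1 was higher in rde-3 mut-16(DE6R) than in WT, with 29.2 and 22.9 against 5.98 and 16.1 CPM (1.16, SE 0.44; edgeR adjusted p = 0.0144), but not without rde-3 mut-16(DE6R) library 1 (1.01), without WT library 1 (0.65) or by DESeq2. The junctophilin gene jph-1 was lower, with 20.0 and 25.6 against 31.4 and 50.8 CPM (−0.86, SE 0.33; edgeR adjusted p = 0.0152), and also in mut-16(DE6R) against WT (−0.82, SE 0.28; edgeR adjusted p = 6.81e-03). Neither jph-1 call held without WT library 2 (−0.50 and −0.44), without the filter, by DESeq2, with upper quartiles, with mitochondrial reads or with library totals (0.24 and 0.36), and the first did not hold without rde-3 mut-16(DE6R) library 1 (−0.68). In the double mutant against mut-16(DE6R) 0 of these 2 genes passed. Of 8 muscle transcription factor genes 5 had reads and 1 was tested, which did not pass in any comparison by edgeR's quasi-likelihood test. Of 7 pharyngeal muscle markers 5 had reads and 0 were tested.

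Summed levels of whole lists, with no filter, moved in different directions. The muscle attachment genes had 212 and 175 CPM in rde-3 mut-16(DE6R), 157.1 and 157.6 CPM in mut-16(DE6R), and 154 and 145 CPM in WT. That is the order of the 8 genes, with no overlap. Genes of muscle excitation and calcium handling had 52.3 and 56.7 CPM, 42.9 and 56.2 CPM, and 71.8 and 91.7 CPM in the same order. There WT was higher than either mutant, and the mutants overlapped. The further sarcomere genes had 225 and 188 CPM in rde-3 mut-16(DE6R), 124 and 161 CPM in mut-16(DE6R), and 232 and 154 CPM in WT, so the double mutant and WT overlapped. Behind these sums were 285, 442 and 279 reads, of which unc-45 alone held 130, 228 and 200. The overlap therefore rests in large part on that gene and does not describe the rest of the list. Muscle transcription factors had 13.8 and 10.8 CPM in rde-3 mut-16(DE6R), 25.0 and 12.4 CPM in mut-16(DE6R), and 35.9 and 33.5 CPM in WT. WT was higher there than either mutant, with no overlap. These sums rested on 17, 47 and 51 reads in the same order. The gene hnd-1 alone held 1 and 1, 6 and 8, and 13 and 15 of them, so the higher WT sum rests in large part on that gene. Pharyngeal muscle markers rested on 21, 30 and 9 reads in the same order, with 18.5 and 12.1 CPM in rde-3 mut-16(DE6R), 7.14 and 11.4 CPM in mut-16(DE6R), and 7.47 and 4.96 CPM in WT, and 3, 3 and 4 of the 7 genes were at 0. The pharyngeal list shares myo-1 and myo-2 with the further sarcomere genes.

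Markers of other tissues also differed between the genotypes. Intestine markers summed to 792 and 709 CPM in rde-3 mut-16(DE6R), 338 and 365 CPM in mut-16(DE6R), and 100.2 and 110.3 CPM in WT, the same order as the 8 muscle genes; 12 of 18 were tested and 12 were higher in the double mutant than in WT, although 2 of these reached the filter's level in WT. Markers at 0 were 4, 2 and 6 of 18 in the same order. Neuron markers ran the other way, with 26.1 and 22.9 CPM in rde-3 mut-16(DE6R), 127 and 143 CPM in mut-16(DE6R), and 329 and 336 CPM in WT, and 10, 4 and 7 of 14 genes at 0; 3 of 4 tested were lower in the double mutant than in WT, and 3 of these 4 reached the filter's level in both WT libraries. Epidermis markers had 7.69 and 9.45 CPM in rde-3 mut-16(DE6R), 10.7 and 6.19 CPM in mut-16(DE6R), and 7.47 and 13.6 CPM in WT, with 5, 4 and 8 of 12 at 0. Germline markers had 2098 and 2100.2 CPM in rde-3 mut-16(DE6R), 1540.3 and 1606 CPM in mut-16(DE6R), and 1620.4 and 1770.4 CPM in WT, with 2, 2 and 1 of 16 at 0. Of these 16, 13 were tested and 13 reached the filter's level in both WT libraries. In the double mutant against WT 9 were higher and 1 was lower. In that comparison 26.8% of all tested genes were higher and 37.9% lower. The part of tissue makeup in the muscle results was not tested.

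**Figure D5:**
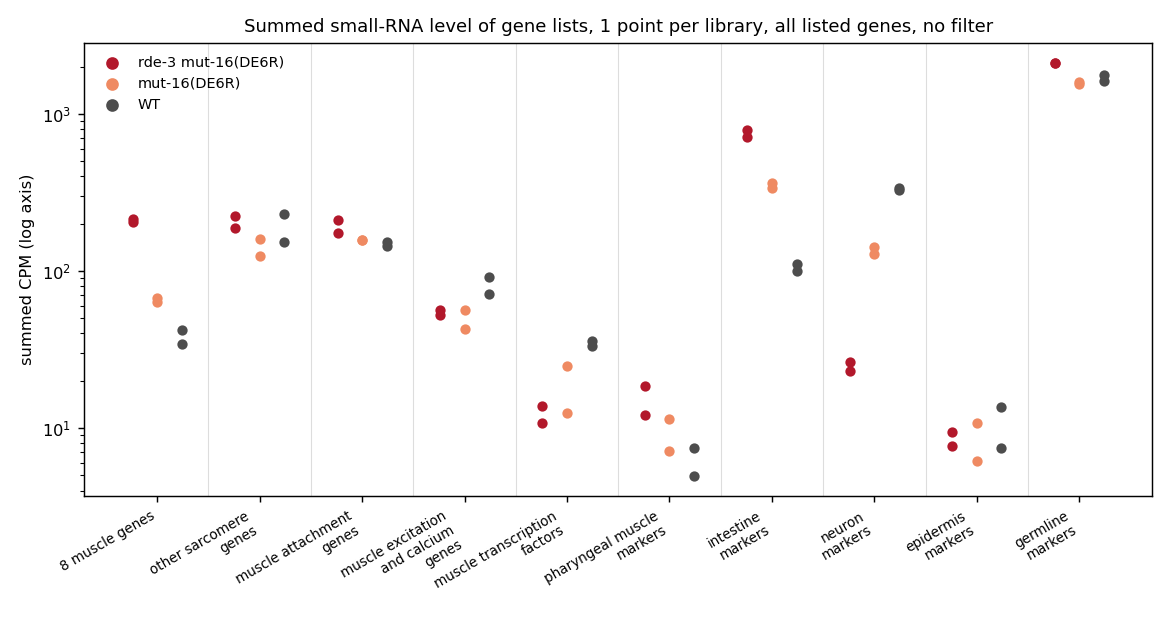
Summed CPM (log axis) of the 8 muscle genes and of 9 gene lists in every library of rde-3 mut-16(DE6R), mut-16(DE6R) and WT, over all listed genes with no filter. The 8 muscle genes had 205 to 215, 63.1 to 67.6 and 34.4 to 42.2 CPM. The muscle attachment genes and the intestine markers stand in the same order and the neuron markers in the reverse order. The further sarcomere genes overlap. The sums of the further sarcomere genes rest in large part on unc-45, without which the rest of that list stands in the order of the 8 muscle genes.

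The genes whose pattern was most like that of unc-54 were searched among 5308 tested genes by the root mean square difference of log2(CPM + 1), each centred on its own mean over the 6 libraries. The nearest was R03D7.2 on II, with a difference of 0.264 and mean levels of 135 CPM in rde-3 mut-16(DE6R), 34.9 CPM in mut-16(DE6R) and 22.7 CPM in WT. It was followed by clec-63 (II, 0.335), kbp-5 (I, 0.343), bcf-1 (V, 0.354) and asp-6 (V, 0.363), which had between 3.97 and 7.46 CPM in WT and between 22.4 and 49.95 CPM in rde-3 mut-16(DE6R). None of these 5 is in the muscle lists. Likeness over 6 libraries in 3 groups is a description only.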

How the data were processed

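Small RNAs were extracted with Trizol, treated with PIR-1 (a phosphatase that makes triphosphorylated RNAs ligatable), joined to linkers, amplified and size-selected, per the labels' protocols. The authors deposited whole-number read counts per transcript for 6 libraries, and 20 further columns, of the tethered libraries, that were not used and hold 1 value each, reads on a transgene; cutadapt 4.9, Bowtie 1.3.1 and WBcel235 are named per the submitters' processing notes, with no role. Not given in the sources used here are the counting program, strand use and treatment of multi-mapping reads. An unnamed further column is a transcript length that the authors deposited in no stated unit, another kind of value than a count; it equalled the annotated spliced length in bases for 33720 of 33755 transcripts.

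Of 34324 identifiers, 33755 matched a transcript and 190 a sequence name of the Ensembl release 115 annotation and 379 matched none; 1 blank identifier held 0 reads. Genes were tested with edgeR 4.0.16 (R 4.3.3) by its robust quasi-likelihood F test, TMM factors, 1 coefficient per group over all 6 libraries (3 residual degrees of freedom), after its expression filter (minimum count 10, minimum total 15), which kept 5312 genes with 98.3% of the reads. P-values were adjusted by Benjamini-Hochberg at 0.05. The script was tested on simulated data. Libraries of a group differed by more than counting noise (chi-square per degree of freedom 1.13 in rde-3 mut-16(DE6R), 1.11 in mut-16(DE6R) and 1.52 in WT), so none was counted once. Ratios of reads use scaled library sizes and 95% exact binomial intervals.

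The 8 genes and all lists were chosen with earlier results of these data known. Named genes were the 8 genes, up to 3 genes with the smallest p of each other muscle list, and the 5 genes nearest to unc-54. Alternatives were 5 other scalings, 2 other filters, DESeq2 1.42.0, a fit that was not robust, a replicate block, fits of only 2 groups, and each library left out. Sequences were not used, since no sequence of these genes was at hand. The tethered libraries were not analysed here.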

Additional observations from a re-analysis of the deposited data

How the results depend on the processing

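The unc-54 calls held under all 17 alternatives of each comparison. The number of the 8 genes called higher was 4 for the double mutant against WT, 2 for mut-16(DE6R) against WT and 4 for the double mutant against mut-16(DE6R). It was 2, 1 and 2 when at least 1 CPM was asked in every library, which left 2 of the 8 genes to test, and DESeq2 called 1 in the second and 2 in the third comparison, where the cause was not tested. Leaving out 1 library gave 3 to 4, 1 to 2 and 2 to 4. Among all 5312 tested genes, 1424, 1173 and 877 were higher in the 3 comparisons. Asking for 1 CPM in every library gave 1368, 1145 and 797 of 5398 genes. DESeq2 gave 482 of 5312 genes in the second comparison and 217 in the third. The summed log2 ratio of the 8 genes was 2.46, 0.77 and 1.69. It was 2.99, 1.17 and 1.82 with upper quartiles, 3.56, 1.97 and 1.60 with library totals, and 3.72, 1.63 and 2.09 with totals without F56H9.8. Scaling to mitochondrial reads gave 1.04 and 1.55 in the second and the third comparison, and without unc-54 1.87 and 0.19 in the first and second. Where a value did not pass in mut-16(DE6R) against WT, its sign was unsure: myo-3 ranged from −0.092 to 0.79 when 1 library was left out (−0.06 without WT library 1), and unc-27 was 0.43 with library totals and 0.11 with totals without F56H9.8.

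Over all genes, 1424 were higher and 2015 lower in the first comparison, 1173 and 1944 in the second, and 877 and 1393 in the third. With upper quartiles these splits were 2369 and 1742, 2107 and 1586, and 1284 and 1274. With library totals the first 2 were 2944 and 1544, and 3394 and 1005, and with totals without F56H9.8 all 3 were 3069 and 1509, 2938 and 1244, and 2028 and 1141. Mitochondrial reads gave 1731 and 1640 in the second and 445 and 1486 in the third. DESeq2 called 2053 genes in the second comparison and 1205 in the third, against 3117 and 2270 in edgeR. The labels give the libraries of each group a replicate number, but libraries with the same number did not deviate together (correlations across genes of −0.0236, −0.0162 and −0.000816). With the replicate block unc-54 was at 2.84, 1.20 and 1.64, the same 4, 2 and 4 of the 8 genes were counted as higher, and no call on them changed. Depth limits lev-11 most, with 2 reads in all, and then unc-15, with 4. The 4 genes with few reads together (ratio 0.868, 0.318 to 2.30) did not reach the lower bound at unc-54 (4.86) in the double mutant against WT.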

Other observations

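Several muscle genes outside the filter held more than 20 reads in all and are given here as read counts, with no test; they were chosen after their values were seen. The light chain gene mlc-3 had 5 and 8 reads in the rde-3 mut-16(DE6R) libraries, 6 and 9 in those of mut-16(DE6R) and 0 and 0 in those of WT. The pharyngeal myosin gene myo-1 had 6 and 6 reads in the double mutant libraries, 5 and 9 in those of mut-16(DE6R) and 1 and 3 in those of WT. The type IV collagen gene let-2, the partner of emb-9 in basement membranes, had 7 and 6 reads in the double mutant libraries, 7 and 13 in those of mut-16(DE6R) and 1 and 1 in those of WT. In the other direction, unc-49, a GABA receptor gene of muscle, had 0 and 1 reads in the double mutant libraries, 0 and 1 in those of mut-16(DE6R) and 12 and 10 in those of WT. The early muscle factor gene hnd-1 had 1 and 1 reads in the double mutant libraries, 6 and 8 in those of mut-16(DE6R) and 13 and 15 in those of WT. The troponin T gene mup-2, a relative of tnt-2 in body wall muscle, had 2 and 6 reads in the double mutant libraries, 2 and 7 in those of mut-16(DE6R) and 4 and 3 in those of WT.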
